A study of Mus musculus with 46 samples.

Results

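MycVD tumours are mouse liver tumours whose Myc transgene carries the V394D substitution, and they were compared here with liver tumours that express wild-type Myc from the same kind of transgene (Myc tumours). Samples were taken by their titles, which gave 11 MycVD tumours and 16 Myc tumours, 27 of the 46 samples of the series. Titles also carry an animal ID, and the log2 values of tumours that share an ID were averaged first, which left 10 MycVD IDs and 7 Myc IDs of 31 in all. Both groups are of the FVB strain and carry the LAPtTA transactivator, which drives the tet-controlled transgene in the liver, starting in utero, and in both it was left on until sampling. They differ by label in the transgene alone, tet-Myc/LAPtTA against tet-MycVD/LAPtTA. The 11 control livers (FVB, genotype given only as control liver) and the 8 Myc-off tumours from 3 IDs (tet-Myc/LAPtTA, doxycycline food for 16 h before sampling) serve as reference levels and share the estimate of the spread. Ages are not given in the labels. LAPtTA limits expression of the transgene to cells with that liver promoter active. Blood vessels, connective tissue and immune cells of a tumour are thus not set to express it.

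Myc is a transcription factor that binds DNA as a pair with Max at E-box sequences and activates genes of growth, ribosome assembly and cell division. It can also bind the zinc finger factor Miz1, encoded by Zbtb17, at promoters that hold no E-box, and repress them there. The V394D substitution impairs the contact of Myc with Miz1 and spares the pairing with Max, so the comparison of MycVD with Myc tumours addresses which genes depend on that contact. In liver, high Myc is known for lowering the output of differentiated hepatocyte genes, such as those of plasma proteins, bile acid synthesis and drug metabolism, and for raising genes of the fetal liver.

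Expression is given as eRPKM, the authors' exonic reads per kb of gene, scaled to library size. Read totals recovered from the steps of the low values were 6.18 to 10.6 M reads per MycVD library (median 7.81) and 7.28 to 12.7 M per Myc library (median 9.65). Myc libraries thus had the larger totals, which are called depth below. Reads of measured genes made up 98.5 to 99.3% of the totals over all 46 libraries. The totals therefore need not equal all reads sequenced. All MycVD IDs carry higher numbers than all Myc IDs, so date or batch and the substitution cannot be told apart. Hepatocyte products were present in each of the 27 tumours: Alb, the albumin gene, ran from 59.6 to 217 eRPKM and the apolipoprotein gene Apoa1 from 105 to 199.8. Gapdh, a glycolysis gene that every cell uses, stood apart at 16.1 to 25.4 eRPKM in 5 Myc libraries and at 19.8 to 27.1 in 2 MycVD libraries, against 35.2 or more in the other tumours, and counts of calls are also given without these libraries for all genes and for the lists with the larger moves. Xist and Y-linked genes put 4 Myc IDs as female and 3 as male, and 5 MycVD IDs as each sex. Over the tested genes the median SD was 0.246 on the log2 scale between MycVD IDs, 0.171 between Myc IDs and 0.197 between tumours of 1 Myc ID (5 IDs with 14 tumours).

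The tumours differed in 2290 of 14566 tested genes by limma with a Benjamini-Hochberg adjusted p under 0.05, which is 15.7% of the genes, and such genes are named called from here on. Of these, 955 (6.56%) were higher and 1335 (9.17%) lower in MycVD tumours, and 401 (2.75%) changed at least 2-fold, 195 of them upward and 206 downward. All MycVD IDs lay above all Myc IDs in 122 genes (0.838%) and below them in 179 (1.23%). Changes are log2 differences of eRPKM + 0.5, MycVD minus Myc, with the standard error of the fit, and their median over all tested genes was -0.042. The calls were spread unevenly over abundance. Of the 1849 genes with more than 400 reads per kb, 253 were called higher and 13 lower (median change 0.10), while of the 5029 genes with 10 to 100 reads per kb 311 were called higher and 697 lower (median -0.14).

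The split of the calls moved with the handling of depth. With the read total as a term in the fit, 702 genes were called higher (4.82%) and 395 lower (2.71%), so that 64.0% of the calls were upward against 41.7% without the term. Quantile normalisation gave 1155 higher and 1122 lower (50.7% upward), and a term for the ID number gave 961 and 818 (54.0% upward). Among single IDs left out, Myc ID130395 lowered the calls most, to 669 higher and 828 lower. Leaving out the libraries low in Gapdh raised them to 1616 and 2352. No gene was called in opposite directions by the reported fit and any of the other fits.

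**Figure D1:**
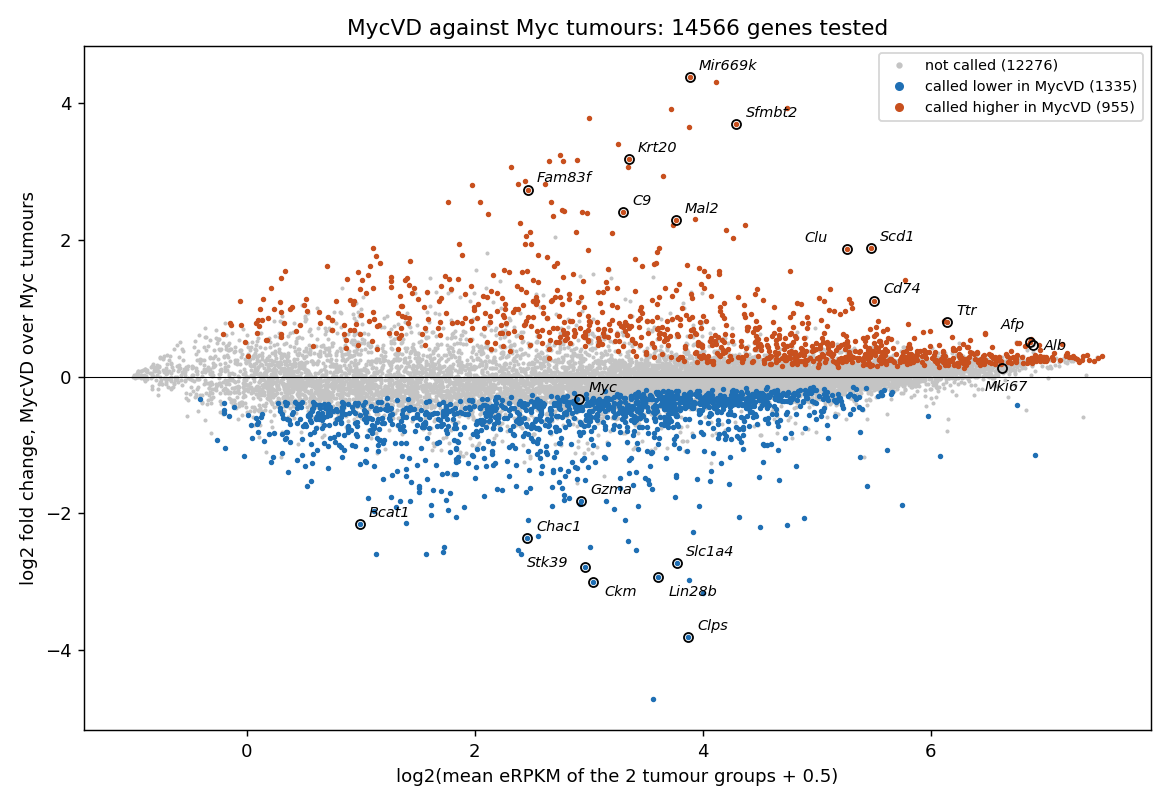
Log2 fold change of MycVD over Myc tumours (vertical axis) against the mean level of both groups as log2(eRPKM + 0.5) (horizontal axis) for the 14566 tested genes, with 955 genes called higher in orange and 1335 called lower in blue. Clps and Ckm are among the lowest, Mir669k and Sfmbt2 are among the highest, and Myc, Mki67 and Alb are not called.

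**Figure D2:**
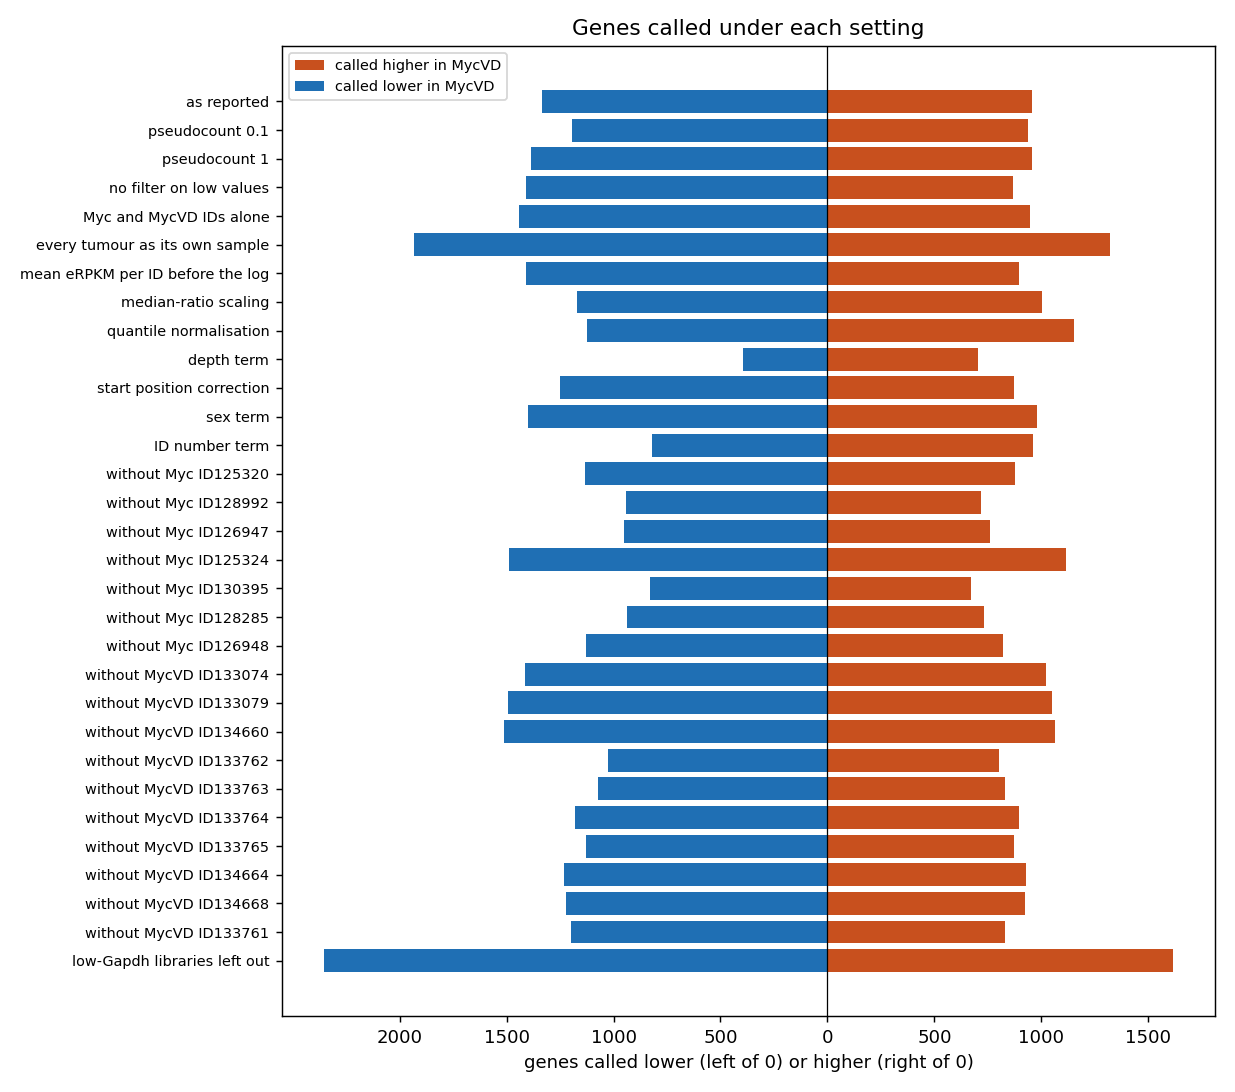
Number of genes called lower (bars left of 0) and higher (bars right of 0) in MycVD tumours under each setting of the fit. The depth term leaves 395 lower and 702 higher, and single left-out IDs give 828 to 1513 lower and 669 to 1115 higher.

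Myc and Max bind the E-box, whose best known form is CACGTG, the same letters on both strands. The 250 bases before the RefSeq start site of each gene (GRCm38.p6) were searched for it, and a promoter was at hand for 10 of the 15 genes with the largest rises and 12 of the 15 with the largest falls, which are described next. No rise and 4 falls held the motif: Lin28b, Faxc, Rragb and Fzd9. They are shown because they are the only genes among these 30 in which the searched letters were found, and the E-box is in capitals, 5′ to 3′ in the direction of transcription.
Lin28b (chr10:45470202-45470451, - strand): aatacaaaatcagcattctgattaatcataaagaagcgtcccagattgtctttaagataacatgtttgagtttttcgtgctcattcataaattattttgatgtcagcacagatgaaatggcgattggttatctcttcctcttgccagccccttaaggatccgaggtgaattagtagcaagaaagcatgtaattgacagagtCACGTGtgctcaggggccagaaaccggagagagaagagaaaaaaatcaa
Faxc (chr4:21931076-21931325, + strand): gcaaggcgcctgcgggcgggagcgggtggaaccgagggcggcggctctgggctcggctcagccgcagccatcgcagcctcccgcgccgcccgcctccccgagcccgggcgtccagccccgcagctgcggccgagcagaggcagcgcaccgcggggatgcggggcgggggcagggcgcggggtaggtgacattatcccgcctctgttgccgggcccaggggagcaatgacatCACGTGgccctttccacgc
Rragb (chrX:153139708-153139957, + strand): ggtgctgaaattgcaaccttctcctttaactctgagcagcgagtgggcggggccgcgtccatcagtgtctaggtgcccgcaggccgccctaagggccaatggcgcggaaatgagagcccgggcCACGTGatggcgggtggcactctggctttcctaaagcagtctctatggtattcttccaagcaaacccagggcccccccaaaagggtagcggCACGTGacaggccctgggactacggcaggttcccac
Fzd9 (chr5:135251048-135251297, - strand): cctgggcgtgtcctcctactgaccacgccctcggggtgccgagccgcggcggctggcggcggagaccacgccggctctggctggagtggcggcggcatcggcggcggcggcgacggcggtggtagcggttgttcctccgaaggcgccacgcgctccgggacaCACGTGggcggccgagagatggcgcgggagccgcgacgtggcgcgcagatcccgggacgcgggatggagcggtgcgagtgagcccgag
The last base of each run lies next to the start site. The motif starts 49 bases before it in Lin28b, 19 in Faxc, 127 and 36 in Rragb and 88 in Fzd9. Over all tested genes with a promoter at hand the share with the motif was 9.64% (1027 of 10650), and 6.02% of all 32851 reference promoters held it. Among called genes the share was 9.39% of those higher (65 of 692) and 8.93% of those lower (87 of 974). With at least a 2-fold change it was 3.42% (4 of 117) and 12.4% (15 of 121). These shares describe letters in a window and not binding.

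Of the 15 largest falls without overlap between IDs, 14 are described here. Clps, the gene of pancreatic colipase, averaged 26.7 ± 15.3 eRPKM in Myc tumours (SD, n = 7) and 1.58 ± 1.71 in MycVD tumours (n = 10). By tumour the Myc group read 29.4, 65.9, 80.4, 19.7, 47.5, 44.2, 18.6, 29.4, 24.6, 28.7, 25.5, 12.6, 27.4, 19.2, 14.6 and 6.204 eRPKM. The MycVD group read 5.99, 1.16, 2.68, 1.297, 0.982, 0, 1.34, 0.224, 0.261, 1.16 and 1.53, so the highest MycVD tumour was just under the lowest Myc tumour. The change was -3.80 ± 0.41 (SE, adjusted p = 1.6e-07). Ckm, the creatine kinase gene of muscle, read 8.46, 31.96, 22.6, 10.3, 6.33, 23.3, 16.2, 25.8, 16.1, 34.3, 8.18, 8.25, 9.93, 16.5, 7.21 and 6.41 eRPKM in the 16 Myc tumours. In the 11 MycVD tumours it read 0.475, 1.15, 2.41, 0.679, 2.29, 0.0905, 2.72, 1.02, 0.546, 1.05 and 3.02, again with no overlap. Its change was -2.99 ± 0.42 (adjusted p = 1.3e-05). Both genes were near 0 in control liver, at 0.0787 and 0.0263 eRPKM. In Myc-off tumours they averaged 41.6 and 8.68, but the IDs were far apart. Clps read 97.4, 10.0 and 17.3 in ID150584, ID151964 and ID153344, and Ckm 24.7, 1.09 and 0.275. Ckm in ID151964 and ID153344 thus lay within the range of the MycVD tumours.

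Colipase and creatine kinase mark pancreas and muscle, so the other markers of those tissues were read in the same tumours. Of the 23 other acinar markers 18 stayed under 1 eRPKM in every Myc ID and 18 in every MycVD ID, among them the digestive enzyme genes Cpa1, Ctrb1, Pnlip, Prss2 and Cel. Their summed level without Clps was 40.05 to 65.9 eRPKM in Myc IDs and 51.02 to 84.4 in MycVD IDs, led by Spink3, Ctrl and Cela1. Of the 23 other muscle markers 18 stayed under 1 eRPKM in every Myc ID and 15 in every MycVD ID, with the myosin genes Myh1, Myh2 and Myh4 and the actinin gene Actn3 among them. Their summed level without Ckm was 28.7 to 39.4 and 27.5 to 51.6. Clps and Ckm were the only called members of these lists of 6 and 9 tested genes.

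Stk39 encodes SPAK, a kinase that controls ion cotransporters. It read 9.63, 19.6, 12.6, 11.5, 12.6, 2.45, 19.6, 17.3, 11.3, 10.8, 9.88, 14.9, 17.3, 11.6, 13.4 and 6.46 eRPKM in the 16 Myc tumours. In the MycVD tumours it read 1.41, 0.979, 2.37, 1.32, 0.929, 0.448, 1.89, 2.10, 3.92, 0.687 and 0.943. By ID the groups were apart, at 7.55 to 19.6 eRPKM (median 13.3) and 0.448 to 3.92 eRPKM (median 1.15), but 1 tumour of Myc ID128992, at 2.45, lay below the highest MycVD tumour. The change was -2.78 ± 0.27 (adjusted p = 2.5e-08). Slc1a4, which encodes a transporter of alanine, serine and cysteine, stood at 14.8 to 33.9 eRPKM (median 20.7) in Myc IDs and 0.391 to 6.76 eRPKM (median 3.12) in MycVD IDs, a change of -2.73 ± 0.34. Rragb, which encodes a Rag GTPase that reports amino acids to mTORC1, changed by -2.40 ± 0.43, and Tbc1d4, which encodes a Rab regulator of glucose uptake, by -2.27 ± 0.38 (adjusted p = 2.1e-06, 2.8e-04 and 1.1e-04 in this order).

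Other falls without overlap between IDs include receptors, membrane proteins and a noncoding RNA. By single tumour Crabp2, Camkv, Tm4sf5, Fam174b and Faxc did overlap, while Crnde and Fzd9 did not. The long noncoding RNA gene Crnde averaged 5.05 ± 1.49 eRPKM in Myc and 0.55 ± 0.728 in MycVD tumours (change -2.57 ± 0.27). Crabp2, the gene of a retinoic acid binding protein, stood at 9.25 ± 4.58 and 1.49 ± 1.03 (-2.33 ± 0.33), and the Wnt receptor gene Fzd9 at 5.25 ± 2.16 and 0.906 ± 0.544 (-2.05 ± 0.22). Camkv, which encodes a kinase-like protein of neuronal vesicles, stood at 14.95 ± 2.94 and 4.05 ± 2.797 (-2.10 ± 0.35). The membrane protein genes Tm4sf5 and Fam174b changed by -2.54 ± 0.32 and -2.49 ± 0.33, and Faxc by -2.49 ± 0.24. In control liver 12.9 eRPKM were read for Fam174b, while Crnde, Crabp2, Fzd9, Camkv, Tm4sf5 and Faxc were all at or under 0.239. All 15 falls stayed called when any 1 Myc or MycVD ID was left out, and 14 stayed with the depth term, where Lin28b was the exception. The genes were picked from these same values, so such fits are no independent check.

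Lin28b, an RNA-binding gene that blocks the maturation of let-7 microRNAs and is active in fetal liver, divided the MycVD tumours. The 16 Myc tumours read 16.2, 17.3, 19.7, 22.7, 16.8, 17.7, 20.2, 13.8, 14.9, 16.04, 14.1, 18.9, 18.8, 15.4, 20.9 and 16.6 eRPKM, a narrow range. The MycVD tumours read 12.04, 12.4, 14.3, 0.053, 0, 0.0424, 0.176, 0.0244, 7.17, 0.0379 and 7.35. By ID, 5 of 10 MycVD IDs lay between 7.17 and 14.3 eRPKM, all below the lowest Myc ID at 14.7, and the other 5 between 0 and 0.10, like control liver (0.0252). The change was -2.92 ± 0.65 (adjusted p = 0.0025), and -2.26 with the depth term (adjusted p = 0.051). The 5 higher IDs had 7.43 to 10.6 M reads and the 5 low IDs 6.18 to 8.73 M, and the part of depth in this division was not tested.

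The same 5 IDs, ID133762, ID133763, ID133764, ID133765 and ID134668, were also the lowest for Slc1a4 (0.391 to 2.75 against 3.495 to 6.76 eRPKM in the other 5 MycVD IDs), for Rragb (0.383 to 1.16 against 5.13 to 9.55) and for Tbc1d4 (1.36 to 1.82 against 7.86 to 13.9). Other falls did not divide the IDs in this way. Dlk1 stood at 2.18 to 17.0 eRPKM in these 5 IDs against 9.33 to 25.6 in the other 5, and Stk39 at 0.448 to 1.99 against 0.943 to 3.92. These values are given as a description, with no test, since the division was seen in the data. Igf2bp1, which encodes another oncofetal RNA-binding protein, was at 0.107 to 1.16 eRPKM in these 5 IDs and in ID134664 and at 16.97 to 50.9 in the remaining 4. In Myc IDs it ran from 4.47 to 40.7.

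The 9 highest changes over all tested genes came from 1 locus. Sfmbt2 is an imprinted gene of a Polycomb-related protein, and its intron holds a large cluster of microRNA genes of the Mir297, Mir466, Mir467 and Mir669 families. The gene and its microRNA genes fall outside the rule for named genes, because their ID values overlap or because of their names, and they were singled out after their values were seen. Sfmbt2 stood at 0.397 to 3.102 eRPKM (median 0.641) in Myc IDs and 0.405 to 80.2 eRPKM (median 39.7) in MycVD IDs, a change of 3.69 ± 0.67 (adjusted p = 3.0e-04). The 5 MycVD IDs low in Lin28b were the 5 highest, at 55.2 to 80.2 eRPKM. ID133761 stood at 24.2, and ID133074, ID133079, ID134660 and ID134664 at 3.77, 0.405, 2.84 and 6.099, so that ID133079 lay among the lowest Myc IDs. Control liver averaged 0.189 and Myc-off tumours 9.21 eRPKM.

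RefSeq (GRCm38.p6) places 22 of the 25 measured microRNA genes of these families inside Sfmbt2. Of these 21 were tested and 21 called higher (all genes 6.56%), with changes of 1.10 to 4.37 and a median of 3.14. Most of them were near 0 in Myc IDs and control liver. They could therefore pass the filter of 1 eRPKM in 3 IDs through the MycVD IDs where they are high. The count describes 1 locus and gives no separate support for its rise. Mir669k changed most, with 0 to 1.87 eRPKM (median 0) in Myc and 0.753 to 57.3 eRPKM (median 29.1) in MycVD IDs (4.37 ± 0.64, adjusted p = 1.9e-05), and Mir669i reached 112 eRPKM in 1 MycVD ID against 2.68 in the highest Myc ID. The 2 tested members that RefSeq places elsewhere, Mir466i and Mir467f, were not called, at -0.38 and -0.58. With the depth term 9 of the 21 stayed called, and with the ID number term 18. These libraries hold fragments of long RNA, so the values report the transcript through the cluster and not mature microRNAs. A hairpin of 127 bases such as Mir669k gains 0.902 eRPKM per read at the median depth, and members with near-identical sequences may share reads.

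**Figure D3:**
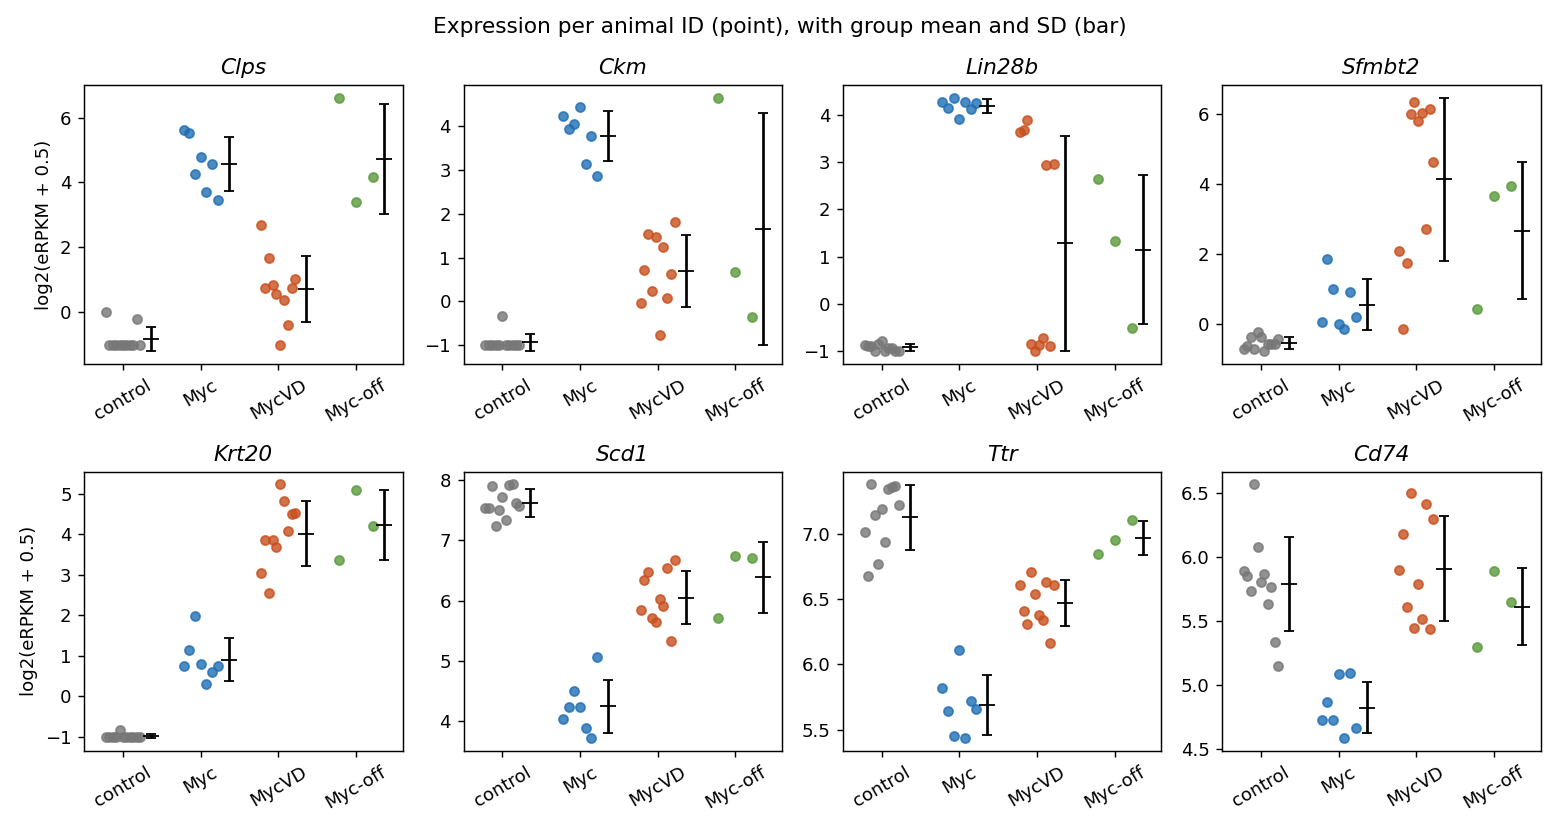
Level of 8 genes as log2(eRPKM + 0.5) in each animal ID of the 4 groups (points), with the group mean and SD (black bars). Clps and Ckm are lower in every MycVD ID than in any Myc ID, Lin28b and Sfmbt2 divide the MycVD IDs, and Krt20, Scd1, Ttr and Cd74 are higher in every MycVD ID than in any Myc ID.

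Krt20, a keratin gene of gut and bladder epithelium, rose most among the genes without overlap. It read 1.19, 0.7602, 1.21, 1.55, 0.353, 3.07, 3.44, 1.27, 0.716, 1.67, 1.25, 0.739, 0.838, 1.17, 0.825 and 1.52 eRPKM in the 16 Myc tumours. The 11 MycVD tumours read 7.81, 13.9, 5.397, 13.9, 12.4, 37.1, 22, 33.99, 16.3, 22.03 and 22.5, all above the Myc tumours. The change was 3.17 ± 0.28 (adjusted p = 6.4e-09), with 0.00526 eRPKM in control liver and 20.5 in Myc-off tumours. Fam83f, from the same list of epithelial genes, stood at 0.298 to 1.29 eRPKM (median 0.711) and 1.89 to 26.1 eRPKM (median 7.17) (2.73 ± 0.39).

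Of the epithelial list 9 of 26 tested genes rose and 1 fell (none lower without Myc ID125320, median change 0.46, all genes -0.042), and 5 were called higher with the depth term. Epcam, a cell adhesion gene of bile ducts and progenitors, averaged 1.33 ± 0.779 eRPKM in Myc and 8.91 ± 8.11 in MycVD tumours (1.94 ± 0.50, adjusted p = 0.0082). Among markers of bile duct and progenitor cells 2 of 12 tested were called higher, Epcam and the tight junction gene Cldn7, and 1 lower, Pkhd1. These shares are 16.7% and 8.3%, against 6.56% and 9.17% of all genes. The calls of Cldn7 and Pkhd1 were lost in 8 and 10 of 17 fits without 1 ID, among them that without Myc ID128992 for both, and with the depth term. The list had summed levels of 53.96 to 85.9 eRPKM in Myc and 51.3 to 175 in MycVD IDs. No intestinal marker other than Krt20 was called higher. Tff3 was called lower, but not in several other fits. Among these were the fit without Myc ID125320, those with the depth or ID number term, and that of the tumour IDs alone. The sum of the intestinal markers without Krt20 was 146 to 228 eRPKM in Myc and 36.03 to 282 in MycVD IDs. The gut regulators Cdx1 and Cdx2 and the mucin gene Muc2 stayed under 1 eRPKM in every tumour ID.

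Several other rises without overlap between IDs were genes of adult hepatocytes. Single tumours did overlap. The highest Myc tumour read 12.5, 23.1, 19.95 and 45.02 eRPKM for C9, Mbl1, Aass and Cyp2c70, against 4.94, 8.13, 17.7 and 13.2 in the lowest MycVD tumour. Mal2, Serpina12 and Mmd2 overlapped by tumour too, and Ces1e did not. C9, which encodes the last component of the complement pore, stood at 0.893 to 4.79 eRPKM (median 1.92) in Myc and 4.94 to 44.9 eRPKM (median 14.01) in MycVD IDs (2.40 ± 0.33), with 122 in control liver. Mbl1, the gene of a mannose-binding lectin, stood at 5.003 ± 3.08 and 20.7 ± 10.4 (2.21 ± 0.26). Aass, which encodes the first enzyme of lysine breakdown, rose from 7.83 ± 3.87 to 32.5 ± 10.9 (2.22 ± 0.23), and Cyp2c70, a bile acid hydroxylase gene, from 14.6 ± 7.23 to 38.8 ± 11.3 (1.55 ± 0.21). The carboxylesterase gene Ces1e changed by 2.42 ± 0.29, Mal2, a gene of transport across polarised cells, by 2.28 ± 0.27, and Serpina12, the vaspin gene, by 2.55 ± 0.41. Mmd2 averaged 6.86 ± 3.65 in Myc, 29 ± 12.4 in MycVD and 19.99 in control samples (2.14 ± 0.29). For Ces1e, Mal2, C9, Mbl1, Aass and Cyp2c70 control liver was higher than MycVD tumours, at 95.4, 66.8, 122, 137, 84.5 and 136 eRPKM.

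A smaller set rose although control liver held little of it. Erich4 averaged 4.32 ± 1.07 eRPKM in Myc, 25.3 ± 11.5 in MycVD and 0.0603 in control samples (2.30 ± 0.34). Aqp3, a water and glycerol channel gene, stood at 2.46 ± 0.914, 14.9 ± 12 and 0.113 (2.10 ± 0.32), and Tnnc1, a troponin gene of heart and slow muscle, at 6.76 ± 2.06, 23.6 ± 15.3 and 1.29 (1.59 ± 0.33). All 15 rises stayed called with the depth term and without any 1 of the Myc or MycVD IDs, which is no independent check of genes picked from these values.

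**Figure D4:**
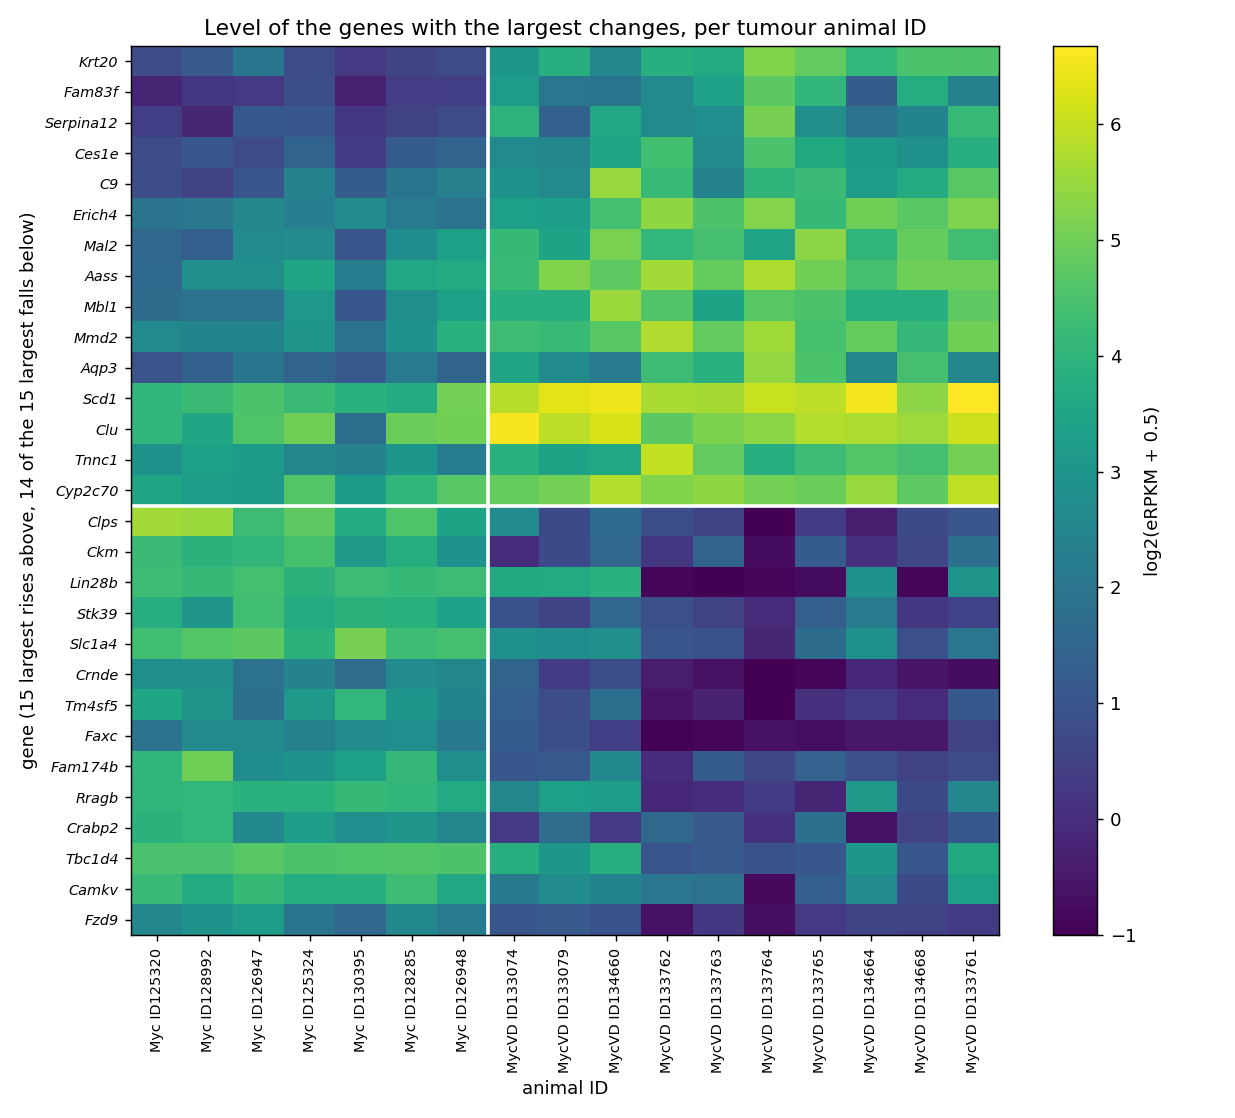
Level, as log2(eRPKM + 0.5), of the 15 genes with the largest rises (top) and 14 of the 15 with the largest falls (bottom) without overlap, in 7 Myc IDs (left of the white line) and 10 MycVD IDs. Lin28b, Rragb and Tbc1d4 are closer to the Myc level in 5 MycVD IDs and low in the others, while Clps and Ckm are lower in all 10 than in any Myc ID.

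Coagulation and complement had the largest share of members called higher among the 51 lists. Of 36 tested genes of coagulation and complement 26 rose and 0 fell (median change 0.46), against 6.56% of all genes called higher. Mbl2, a second mannose-binding lectin gene, averaged 8.003 ± 4.79 and 23.3 ± 14.5 eRPKM (1.54 ± 0.30, adjusted p = 6.8e-04), and F5, the gene of coagulation factor V, 5.11 ± 3.31 and 12.9 ± 9.79 (1.29 ± 0.33, adjusted p = 0.0074). Among plasma carriers and apolipoproteins 16 of 30 rose and none fell (median 0.38). Ttr, the gene of the thyroxine carrier transthyretin, stood at 42.8 to 68.4 eRPKM (median 49.9) in Myc and 71.05 to 104 eRPKM (median 88.4) in MycVD IDs, without overlap, a change of 0.79 ± 0.10 (adjusted p = 3.5e-06). The antitrypsin gene Serpina1d changed by 0.87 ± 0.14 (adjusted p = 7.0e-05), and its near-identical relatives may share its reads. Alb itself averaged 101 ± 26.02 and 136 ± 33.3 eRPKM, and its change of 0.46 ± 0.19 did not pass the test (adjusted p = 0.088, and called without Myc ID125324).

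Many of these genes are among the most abundant of the tumours, and the Myc libraries had the larger read totals. With the depth term 15 of 36 coagulation and complement genes and 6 of 30 carriers were called higher, with 1 complement or coagulation gene lower. With the ID number term the counts were 17 and 8. Of the cytosolic ribosomal protein genes, 15 of 56 were called higher (median 0.24), 0 with the depth term (median 0.03), 2 without Myc ID126947 and 32 without Myc ID125324, and 32 without the libraries low in Gapdh. Quantile normalisation also gave 0. A correction for collapsed read starts, with a ceiling of 2000 reads per kb, gave 3 of them, 22 coagulation and complement genes and 12 carriers higher. Of the 1849 genes with more than 400 reads per kb it called 163 higher and 26 lower, against 253 and 13 as reported. Whether a ceiling compresses the levels of the most abundant genes was not tested. The genes C9, Mbl1, Mbl2 and F5 changed by 2.37, 2.22, 1.66 and 1.36 with the depth term, all still called.

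Part of the genes of liver metabolism rose as well. Of 16 tested carboxylesterases, which split esters of lipids and drugs, 5 rose (31.2%, all genes 6.56%, median change of the list 0.86). Among them were Ces1d at 1.66 ± 0.32 and Ces2e at 1.08 ± 0.23, although reads may be shared within this family. Among periportal genes, which mark hepatocytes near the portal vein, 8 of 19 rose and 1 fell (42.1% and 5.3%, none fell without Myc ID125320). Cyp2f2 averaged 2.31 ± 2.86 and 12.5 ± 12.3 eRPKM (2.39 ± 0.50, adjusted p = 0.0014) and Sds, the serine dehydratase gene, 20.9 ± 7.56 and 44.9 ± 15.1 (1.11 ± 0.19, adjusted p = 1.2e-04). In the urea cycle and amino acid breakdown 10 of 37 rose (27.0%) and none fell. Dmgdh of choline breakdown changed by 0.96 ± 0.14, Kmo of the kynurenine pathway by 0.91 ± 0.15 and Hgd of tyrosine breakdown by 0.78 ± 0.15. With the depth term the counts higher were 4, 3 and 4 for these 3 lists, against 4.82% of all genes.

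Bile acid genes gave 5 of 29 higher and 1 lower (17.2% and 3.4%, all genes 6.56% and 9.17%). There were 12 higher and 3 lower without the libraries low in Gapdh, and 4 lower without MycVD ID134660. The uptake carrier gene Slco1b2 averaged 7.96 ± 5.76 and 29.6 ± 17.7 eRPKM (2.02 ± 0.43, adjusted p = 0.0016), and Slc27a5, a bile acid ligase gene, changed by 1.55 ± 0.29 (adjusted p = 4.1e-04). Cyp39a1, an oxysterol hydroxylase gene, went the other way, from 25.3 ± 3.67 to 11.3 ± 8.18 (-1.58 ± 0.39, adjusted p = 0.0064). Cytochrome P450 genes of families 1 to 4 gave 6 of 50 higher and 1 lower, and 3 higher and none lower without Myc ID128992, with 3 lower without MycVD ID134660 and 3 higher and 0 lower with the depth term. Conjugation enzymes gave 7 of 40 higher and 1 lower (2 lower without MycVD ID134660, 4 higher and 0 lower with the depth term), with Gstm6 at 1.76 ± 0.30 and Gstt2 at 1.01 ± 0.14 among the glutathione transferase genes and the sulfotransferase gene Sult1c2 at -1.57 ± 0.43. Of the liver transcription factors 8 of 34 rose and 1 fell. Rora, a nuclear receptor of clock and lipid genes, rose by 1.16 ± 0.14 without overlap. Nr0b2, the gene of the nuclear receptor SHP, rose by 1.16 ± 0.28 and Cebpa, the C/EBP alpha gene, by 0.38 ± 0.09. Gata6 fell, with a change of -0.81 ± 0.23. The factors gave 3 higher and 0 lower with the depth term and 12 higher and 3 lower without the libraries low in Gapdh, and 3 lower without MycVD ID134660. Cebpa, Gata6 and Sult1c2 were not called with the depth term.

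Genes of lipid synthesis were higher in MycVD tumours with and without the depth term. Of 31 tested genes of fatty acid and triglyceride synthesis 13 rose (41.9%, all genes 6.56%) and none fell. With the depth term 11 were called higher (all genes 4.82%). Scd1, which encodes the desaturase that makes oleate, stood at 12.7 to 33.2 eRPKM (median 18.4) in Myc and 39.9 to 102 eRPKM (median 62.2) in MycVD IDs, without overlap (1.88 ± 0.18, adjusted p = 2.5e-08). Thrsp, a lipogenic regulator gene, averaged 6.22 ± 3.78 and 21.9 ± 13.2 (1.62 ± 0.35, adjusted p = 0.0020), and the lipid droplet gene Plin5 8.903 ± 3.25 and 18.3 ± 6.73 (1.00 ± 0.23). In cholesterol synthesis 11 of 22 rose, none fell, and 9 were higher with the depth term. Mvd of the mevalonate steps stood at 7.48 to 12.2 eRPKM (median 9.55) and 14.1 to 33.03 eRPKM (median 20.7) without overlap (1.17 ± 0.27, adjusted p = 0.0037), Fdps changed by 0.65 ± 0.16, Lss by 0.62 ± 0.18 and Tm7sf2, a sterol reductase gene, by 0.81 ± 0.17. Leaving out single IDs gave 12 to 15 and 8 to 11 genes higher in these lists.

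**Figure D5:**
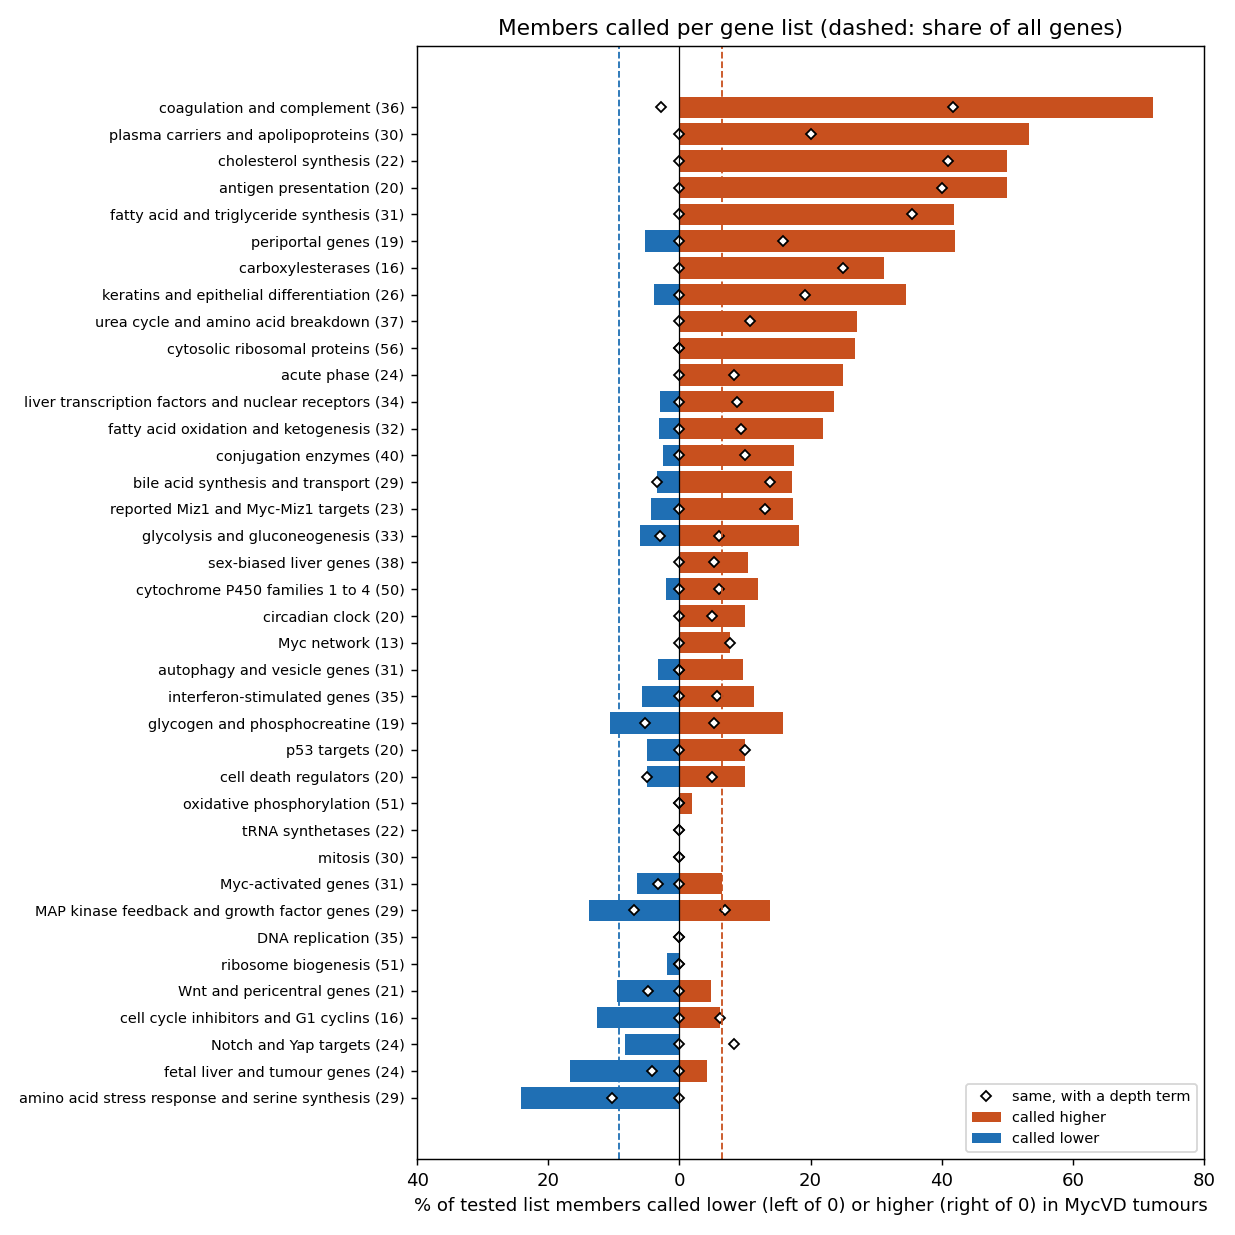
Share of the tested members of each gene list (number tested in brackets) called lower (blue, left of 0) or higher (orange, right of 0) in MycVD tumours, with the shares under the depth term as diamonds and the shares over all genes, 6.56% higher and 9.17% lower, as dashed lines. Coagulation and complement leads with 26 of 36 higher, and amino acid stress response and serine synthesis has the most lower, 7 of 29.

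Myc itself read 6.27 to 10.8 eRPKM (median 7.12) in Myc and 2.67 to 9.86 eRPKM (median 6.77) in MycVD IDs. The groups overlap, and the change of -0.33 ± 0.35 did not pass the test (adjusted p = 0.57). The labels do not name the transgene's species, and a substitution does not show in such values, so they check neither label. Control livers read 1.46 to 18.2 eRPKM and Myc-off IDs 4.16 to 9.11. The values of Myc thus do not set tumours apart from control liver and are no measure of transgene output. Max averaged 42.5 ± 2.86 and 36.3 ± 3.54 eRPKM (-0.23 ± 0.09, adjusted p = 0.10). Zbtb17, the Miz1 gene, averaged 12.6 ± 1.34 and 11.1 ± 1.897 (-0.18 ± 0.11, adjusted p = 0.28), with a change of 0.09 under the depth term. Of the 13 tested members of the network, Mlx, which encodes the shared partner of the glucose-sensing Mondo factors, was the 1 called, higher by 0.23 ± 0.07 (adjusted p = 0.029, up to 0.080 and no longer called without Myc ID128992, ID130395 or ID128285). The network gave 2 higher and 3 lower without the libraries low in Gapdh. The others changed by -0.23, -0.44, -0.18, -0.23, -0.20, -0.11, 0.16, -0.24 and -0.19 for Mycn, Mxd1, Mxi1, Mxd3, Mxd4, Mnt, Mga, Mlxip and Mlxipl. The repressor partner genes Mxd1, Mxi1, Mxd3 and Mxd4 were below 0 with no call (Mxd1 was called without MycVD ID133074), and Mnt turned to 0.01 with the depth term and 0.10 with the ID number term.

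Of 23 tested genes reported as targets of Miz1 or of Myc with Miz1, 4 rose and 1 fell, 17.4% and 4.3% (all genes 6.56% and 9.17%), with a median change of 0.03. The list gave 3 higher and 0 lower with the depth term and 5 higher and 3 lower without the libraries low in Gapdh. Clu, which encodes the secreted chaperone clusterin, stood at 2.91 to 32.3 eRPKM (median 23.2) in Myc and 26.1 to 94.1 eRPKM (median 54.1) in MycVD IDs. These plain means overlap, while the ID averages on the log2 scale, which the overlap rule uses, do not. It changed by 1.86 ± 0.31 (adjusted p = 1.0e-04). Itgb5, an integrin subunit gene, averaged 30.7 ± 3.29 and 41.6 ± 5.43 (0.44 ± 0.12, adjusted p = 0.011), without overlap. Cebpa, described above among the liver transcription factors, is also on this list and rose, but was not called with the depth term. Cdkn2b, the gene of the cell cycle inhibitor p15 and the best known gene repressed by Myc through Miz1, was low throughout, at 0.324 to 0.917 eRPKM (median 0.515) and 0.612 to 1.98 eRPKM (median 1.11). Its change was 0.66 ± 0.21 (adjusted p = 0.035, up to 0.065 with 1 ID left out, and no longer called in 9 of these 17 fits). Cdkn1a, the p21 gene, overlapped fully at 16.2 to 44.3 eRPKM (median 21.9) and 11.5 to 33.7 eRPKM (median 23.8) (-0.17 ± 0.33, adjusted p = 0.77, and 0.33 with the depth term).

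For Cdkn2b the IDs whose removal ended the call were Myc ID125320, Myc ID128992, Myc ID125324, Myc ID130395, Myc ID128285, Myc ID126948, MycVD ID133763, MycVD ID133765 and MycVD ID133761. Vamp4, a vesicle fusion gene, was the 1 target called lower, from 11.9 ± 1.19 to 9.48 ± 1.35 eRPKM (-0.31 ± 0.10, adjusted p = 0.034), and it was not called when any 1 of these was left out: Myc ID128992, Myc ID126947, Myc ID130395, Myc ID128285, Myc ID126948, MycVD ID133764, MycVD ID133765 and MycVD ID134668, nor with the depth term (adjusted p = 0.12). The targets that did not pass the test changed by -0.44, -0.20, 0.02, -0.28, 0.36, 0.11, 0.22, -0.29, -0.06, -0.13, 0.34, 0.11, 0.02, 0.22, -0.16, 0.07 and 0.03 for Mxd1, Mxd4, Cdkn1b, Cdkn1c, Cebpd, Itgb1, Itga6, Itgb4, Itga1, Ambra1, Slc11a1, Ndrg2, Ndrg1, Gadd45a, Bcl2, Hfe and Cdc42ep4. With the depth term the sign turned for Ndrg2 and for Ambra1 and Bcl2, at -0.09, 0.03 and 0.04.

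Few genes of growth and division were called. Mki67, a marker of cycling cells, averaged 93.8 ± 9.17 and 103 ± 13.7 eRPKM (0.13 ± 0.23, adjusted p = 0.74), and -0.04 after quantile normalisation. By limma none of 30 mitosis genes and none of 35 DNA replication genes was called, with 3 and 1 at an unadjusted p under 0.05. Ribosome biogenesis gave 1 of 51 lower, Ubtf, a factor of RNA polymerase I (-0.17 ± 0.05, adjusted p = 0.029, not called without Myc ID125320 or ID130395). Odc1, the polyamine synthesis gene and a classical Myc target, averaged 95.3 ± 8.17 and 108 ± 7.77 (0.19 ± 0.07, adjusted p = 0.072), and was called without Myc ID125324, MycVD ID133079 or MycVD ID134660. The nucleolin gene Ncl changed by 0.12 ± 0.06 (adjusted p = 0.19).

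Of 31 genes known to be activated by Myc, 2 rose and 2 fell (6.5% and 6.5%, close to the 6.56% and 9.17% of all genes). The list gave 0 higher and 1 lower with the depth term and 11 higher and 2 lower without the libraries low in Gapdh, with 1 higher without Myc ID128992 and 10 without Myc ID125324. Bcat1, which encodes the cytosolic transaminase of branched-chain amino acids, stood at 0.618 to 7.12 eRPKM (median 1.49) in Myc and 0 to 0.206 eRPKM (median 0.0308) in MycVD IDs, without overlap (-2.16 ± 0.24, adjusted p = 4.2e-07). The cyclin gene Ccnd2 averaged 9.104 ± 1.34 and 6.22 ± 1.19 (-0.51 ± 0.13, adjusted p = 0.0070, 0.15 with the depth term), and from the list of cell cycle inhibitors and G1 cyclins the kinase gene Cdk6 41.9 ± 1.99 and 28.6 ± 6.71 (-0.58 ± 0.13, adjusted p = 0.0024, 0.065 with the term). The chaperonin gene Hspe1 rose by 0.30 ± 0.07 (adjusted p = 0.0047, 0.14 with the term). Among p53 targets 2 of 20 rose and 1 fell (1 higher without Myc ID125320, 2 lower without Myc ID125324, 2 higher and 0 lower with the depth term, 4 higher and 1 lower without the libraries low in Gapdh), and Fas, the death receptor gene, stood at 7.25 to 9.69 eRPKM (median 8.85) and 10.5 to 23.6 eRPKM (median 16.2) without overlap (0.81 ± 0.12, adjusted p = 3.4e-05). Hrk, a gene of the cell death list that promotes apoptosis, fell, with a change of -1.08 ± 0.20 (adjusted p = 4.5e-04).

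Of 24 tested fetal liver genes 4 fell and 1 rose, 16.7% and 4.2% against 9.17% and 6.56% of all genes. The list gave 0 higher and 1 lower with the depth term (all genes 4.82% and 2.71%), and 1 higher and 7 lower without the libraries low in Gapdh. Beside Lin28b and Igf2bp1 the imprinted growth regulator gene Dlk1 fell. It stood at 21.8 to 26.98 eRPKM (median 24.02) in Myc and 2.18 to 25.6 eRPKM (median 9.96) in MycVD IDs (-1.18 ± 0.28, adjusted p = 0.0039). The imprinted gene Mest also fell, from 12.2 ± 1.13 to 7.88 ± 2.58 (-0.66 ± 0.15, adjusted p = 0.0035, 0.056 with the depth term). Igf2bp1 changed by -2.19 ± 0.75 (adjusted p = 0.044), but its call was lost in 12 of 17 fits that left out 1 ID, those without Myc ID125320, Myc ID128992, Myc ID125324, Myc ID130395, Myc ID128285, Myc ID126948, MycVD ID133762, MycVD ID133763, MycVD ID133764, MycVD ID133765, MycVD ID134664 and MycVD ID134668. Afp, the alpha-fetoprotein gene, was the 1 that rose, from 97.1 ± 25.4 to 136 ± 34.1 eRPKM (0.51 ± 0.16, adjusted p = 0.027, up to 0.081 and not called without Myc ID126947, ID130395 or ID126948, and 0.12 with the depth term). With quantile normalisation, single tumours as samples or the correction for collapsed read starts, 0 genes of this list were called higher. The call of Afp is thus not stable.

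The response to amino acid shortage, run by the factor Atf4, had 7 of 29 genes lower and none higher (median -0.26). The share lower was 24.1%, against 9.17% of all genes. With the depth term 3 were lower (all genes 2.71%). Chac1, which degrades glutathione, stood at 1.49 to 26.9 eRPKM (median 7.51) and 0 to 3.12 eRPKM (median 0.631) (-2.36 ± 0.47, adjusted p = 7.8e-04). Trib3, a pseudokinase gene of this response, averaged 10.4 ± 4.63 and 3.95 ± 1.29 (-1.22 ± 0.26, adjusted p = 0.0019), and the proline synthesis gene Pycr1 9.88 ± 1.74 and 5.68 ± 0.995 (-0.74 ± 0.12, adjusted p = 4.4e-05). None of 22 tRNA synthetase genes was called by limma, with 2 at an unadjusted p under 0.05 and 3 higher and 1 lower without the libraries low in Gapdh. Pck2, the mitochondrial PEP carboxykinase gene, fell by the test from 31.4 ± 4.89 to 15.95 ± 4.51 (-0.98 ± 0.16, adjusted p = 6.0e-05). Among growth factor genes Igfbp2 changed by -1.88 ± 0.47, Igfbp3 by 0.97 ± 0.20 and the receptor gene Fgfr2 by 1.23 ± 0.18 (adjusted p = 0.0061, 0.0012 and 2.6e-05).

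Genes of antigen presentation rose in 10 of 20 cases, none fell, and 8 stayed higher with the depth term. Cd74, the invariant chain of MHC class II, stood at 23.6 to 33.7 eRPKM (median 26.1) in Myc and 42.9 to 90.1 eRPKM (median 56.99) in MycVD IDs (1.11 ± 0.17, adjusted p = 3.0e-05). The class II genes H2-Ab1 and H2-Aa changed by 1.12 ± 0.19 and 0.84 ± 0.15 and the class I gene H2-Q7, which has close relatives, by 1.07 ± 0.24, all without overlap between the log2 averages of IDs. In these bulk samples fewer cells of a type and less RNA per cell cannot be told apart. Beside this rise, macrophage markers had 2 of 18 higher and 4 lower, 11.1% and 22.2% against 6.56% and 9.17% of all genes (1 higher and 2 lower with the depth term). Their summed levels were 477 to 588 eRPKM in Myc and 405 to 586 in MycVD IDs. T, NK and B cell markers had none higher and 4 of 17 lower (2 with the depth term), with sums of 47.98 to 67.3 and 28.9 to 58.3. The B cell genes Ms4a1 and Pax5 were under 1 eRPKM in every tumour ID. The part of these cells in the rise was not tested.

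Gzma, a protease gene of cytotoxic lymphocytes, fell, with 8.25 to 13.1 eRPKM (median 11.2) in Myc and 0.457 to 6.43 eRPKM (median 2.94) in MycVD IDs, without overlap (-1.82 ± 0.30, adjusted p = 8.2e-05), and Gzmb from 7.78 ± 1.96 to 2.42 ± 1.72 (-1.62 ± 0.34, adjusted p = 0.0015). Among macrophage genes the scavenger receptor genes Cd163 and Marco fell, from 2.54 ± 0.556 to 0.905 ± 0.307 (-1.08 ± 0.17, adjusted p = 7.0e-05) and from 3.49 ± 1.95 to 0.464 ± 0.622 eRPKM (-1.91 ± 0.34, adjusted p = 2.3e-04). Ccr2, a chemokine receptor gene of recruited monocytes, rose by 0.63 ± 0.19 (adjusted p = 0.022). Without Myc ID130395, 2 macrophage markers were called lower, and without MycVD ID134660, 6. Endothelial markers gave 2 of 21 lower, 9.5% against 9.17% of all genes, and none higher. Without MycVD ID134660 6 were lower, and with the depth term 0. The 2 were Stab2, a sinusoid scavenger receptor gene, at -1.04 ± 0.30, and Tek, the Tie2 gene, at -0.61 ± 0.17 (adjusted p = 0.017 and 0.017, and 0.098 and 0.32 with the depth term). By limma no marker of stellate cells and fibroblasts (20 tested, 6 at an unadjusted p under 0.05, and 2 higher and 0 lower with the depth term) or of erythroid cells (16 tested, 0) was called.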

How the data were processed

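RNA of 46 mouse livers and liver tumours was depleted of ribosomal RNA and sequenced from libraries that do not mark strand, per the labels' protocols, so overlapping antisense genes cannot be told apart. Values are RPKM over exons (eRPKM), computed by the authors and deposited for 21671 genes in 46 libraries. Per the submitters' processing notes, the tools include TopHat and TopHat2 2.0.8, with mm9 as genome build. The sources used here do not give the counter, the annotation or the denominator. Gene families with near-identical copies (Ces, Cyp, Mup, Serpina1, Saa and others) are uncertain.

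Low values of a gene are whole multiples of the value of 1 read, which gave the read total of each library and the length of 19458 genes. Over these genes 100.0% of values were whole reads within 0.001. Log2(eRPKM + 0.5) was averaged over tumours sharing an ID, taken as 1 animal, which is an assumption. Levels printed by ID are plain means of eRPKM over its tumours. The filter required 1 eRPKM or more in 3 or more IDs, which kept 14566 genes and removed 7105. limma 3.58.1 in R 4.3.3 (eBayes with trend, two-sided) was fitted over all 4 groups without a covariate, and p-values were adjusted by the Benjamini-Hochberg method over all tested genes at 0.05. The pseudocount understates the change of low genes. The depth and limma steps were tested on simulated data. Python 3.11.15 was used for summaries.

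The members, the 51 gene lists and the tests were chosen with earlier results of these data known. Named genes are a fixed set of 10, the 15 largest rises and 15 largest falls among called genes whose ID values do not overlap and whose higher group averages at least 5 eRPKM, up to 4 called members of each list with the largest change (part of these is named), and all members of the Myc network and Miz1 target lists. Provisional and small RNA names were left out of the largest changes, and 1 of the 15 largest falls is not reported here. Sfmbt2, its microRNA genes, Gapdh, Apoa1 and marker genes at low level were added after their values were seen. Promoters and gene positions come from RefSeq (GRCm38.p6), a build other than that of the table, and were matched by symbol.

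Alternatives were other pseudocounts, no filter, only the tumour IDs, single tumours, averaging before the log, median-ratio and quantile scaling, terms for depth, sex and ID number, a correction for collapsed read starts with a ceiling of 2000 reads per kb, and leaving out each ID. Leaving out libraries with Gapdh under 30 eRPKM was chosen after seeing the data.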

Additional observations from a re-analysis of the deposited data

Results flagged for a closer look

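In the 10 fixed genes and 29 of the 30 with the largest changes, the ID values of both tumour groups were checked for 1 value far from the rest (Dixon's test at 95% on the log2 scale, 78 checks, of which chance gives about 1 in 20). Of these 2 stood out. Krt20 was 3.44 eRPKM in Myc ID126947, the highest of its group, against 0.739 to 1.71 in the other Myc IDs. Fam174b was 5.48 eRPKM in MycVD ID134660, the highest of its group, against 0.478 to 2.17 in the other MycVD IDs. In each case the value still lay on its own group's side of the other group, and the call held without that ID.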

How the results depend on the processing

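Single IDs left out gave 669 to 1115 genes higher, 828 to 1513 lower and 329 to 460 with at least a 2-fold change, with the lowest of each without Myc ID130395. The depth term gave 395 lower, the ID number term 818 lower, and the libraries low in Gapdh left out 1616 higher and 2352 lower. The cause of these moves was not tested. The other counts of higher, lower and 2-fold genes stayed within 1.5 times the reported ones, and 898 of the 1097 calls with the depth term were also reported calls. Of the 30 largest changes 29 stayed called with the depth term and 30 in each other fit, all with the same sign. These 30 were picked for their calls, size and lack of overlap in the same values, so their staying called is no independent check. Of the 152 named and called genes, 62 lost the call with the depth term, 49 with the ID number term, 23 with the tumour IDs alone, 18 with quantile normalisation and 1 with the sex term. Without 1 ID, 4 to 38 lost it, most without Myc ID130395 (38), ID128992 (29) and ID128285 (27), and none changed sign in any fit.

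Genes that were not called changed sign as follows, all uncalled in both fits. The depth term gave 0.09 for Zbtb17, 0.33 for Cdkn1a, 0.01 for Mnt, 0.03 for Ambra1, -0.09 for Ndrg2 and 0.04 for Bcl2, and the ID number term 0.02 for Zbtb17, 0.31 for Cdkn1a, 0.10 for Mnt and 0.11 for Cdkn1c. Quantile normalisation gave -0.04 for Mki67, -0.02 for Ncl, 0.03 for Itga1 and -0.04 for Ndrg2, and single tumours as samples 0.05 for Mnt and -0.02 for Ndrg1. With 1 ID left out Cdkn1b ran from -0.02 to 0.06 and Ndrg1 from -0.07 to 0.08. Depth limits genes of low level: at the median read total 1 read is 0.0823 eRPKM for Cdkn2b and 0.232 for Clps. Whether IDs are separate animals is not stated, so p-values measure the spread between IDs.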

Other observations

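Some gene groups not described above had calls in both directions or few calls. Interferon-stimulated genes had 4 of 35 higher and 2 lower (median change -0.12), 11.4% and 5.7% against 6.56% and 9.17% of all genes. There were 2 higher without Myc ID130395, none lower without Myc ID125320 and 8 lower without MycVD ID133079. The list gave 2 higher and 0 lower with the depth term and 4 higher and 13 lower without the libraries low in Gapdh, and 6 higher and 12 lower with single tumours as samples, so the balance of directions is not stable. Igtp, a GTPase gene induced by interferon gamma, averaged 18.5 ± 3.57 eRPKM in Myc and 31.4 ± 13.1 in MycVD tumours (0.69 ± 0.17, adjusted p = 0.0063 by limma, 0.077 with the depth term). Ifit3, which type I interferon induces, went from 7.63 ± 1.93 to 4.46 ± 2.42 (-0.80 ± 0.24, adjusted p = 0.024, not called without Myc ID125320 or ID130395). Slc16a3, a lactate exporter gene, rose, with 1.07 to 6.78 eRPKM (median 2.302) in Myc and 4.102 to 26.8 eRPKM (median 10.8) in MycVD IDs (1.84 ± 0.34, adjusted p = 3.4e-04), and Pfkm, the muscle phosphofructokinase gene, fell from 10.3 ± 1.89 to 5.37 ± 4.23 (-1.25 ± 0.34, adjusted p = 0.011, 0.17 with the depth term). Of 24 Notch and Yap genes 2 were lower and none higher (8.3% lower against 9.17% of all genes), but the list gave 2 higher and 0 lower with the depth term, 3 higher and 3 lower without the libraries low in Gapdh, and 5 higher and 3 lower with single tumours. The 2 genes were Notch3 at -0.73 ± 0.15 and Amotl1 at -0.99 ± 0.24 (adjusted p = 0.0015 and 0.0053, and 0.054 and 0.18 with the depth term). Male-biased Mup20 stood at 0 to 5.26 eRPKM (median 0.967) and 0.562 to 82.8 eRPKM (median 18.4) (2.93 ± 0.68, adjusted p = 0.0034), and at 2.85 with a term for sex (adjusted p = 0.0026, and 0.051 with the depth term).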
